A study of Mus musculus with 2 samples.

Results

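The glycolysis and hypoxia genes described here are 33 named genes of the 25289 in a deposited table of counts from single cells of mouse bone marrow stroma. They were chosen by name, with no threshold on their values: 4 transporters of glucose and lactate, 9 genes of upper and 8 of lower glycolysis, 4 regulators of flux, 4 genes of the hypoxia-inducible factors and their prolyl hydroxylases, and 4 genes known to respond to low oxygen. The mice carried the strain label C56BL/6 and were 8 to 16 weeks old, with no treatment or genotype contrast. Their marrow cells, freed from crushed leg and pelvic bones with the help of collagenase and dispase, were sorted as negative for CD31, CD45 and Ter119 and encapsulated by inDrops, which captures polyadenylated RNA of single cells in droplets. The 2 samples, Stroma1 with 2 libraries and Stroma2 with 3, are replicates of a single group. The labels do not say whether they came from separate animals. Each p-value therefore weighs a difference between classes or along a path only against how such differences vary between these samples. The comparisons are between the authors' classes of cells, of which all are present in both samples, and along the authors' 3 pseudotimes, which order cells towards adipocyte, osteoblast and chondrocyte fates.

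Glycolysis splits glucose into pyruvate, which is either passed to the mitochondria or reduced to lactate by lactate dehydrogenase. Under low oxygen the alpha subunits of the hypoxia-inducible factors, encoded by Hif1a and Epas1, escape hydroxylation by the Egln enzymes and switch on glucose transporters, most glycolytic enzymes and feedback genes. Both subunits are controlled largely at the protein level, which RNA counts do not show. Marrow is a tissue with low oxygen in places, and osteoblasts are known for a high use of glucose.

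Passing cells numbered 948 in Stroma1, with 1658990 counts in all, and 1899 in Stroma2, with 3687913. The 6 classes tested held between 25 and 815 cells and between 55218 and 1450797 counts in a sample. The class labelled Pro-chondrocyte had 4 and 10 cells and is given as values only. Within a sample, 235 barcode sequences occurred in more than 1 library, in 499 cells, and for 86.4% of these sequences all copies had the same class, while pairs of libraries from different samples shared 2 to 4 barcodes. The 10 stroma and adipocyte progenitor markers summed to 81193 and 83050 CPM in MSC and 2393 and 859 in Pro-osteoblast, and the 11 osteoblast markers to 8751 and 9231 in MSC. The counts mostly went against the label of Pro-chondrocyte, where 8 of the 9 chondrocyte markers in the table had no count in either sample. These were Sox9, Acan, Col2a1, Col9a1, Col9a2, Col9a3, Matn3 and Hapln1, while Col11a2 was at 679 CPM in Stroma1 and 0 in Stroma2. In the same class 7 of the 11 osteoblast markers were detected in each sample. The class held 4417 and 11696 counts in all, so the absence of a gene with a low level says little. The classes and pseudotimes were made by the authors from the same cells, and may rest in part on the genes compared here.

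A level below is in CPM, the counts summed over a class in a sample and brought to a common total, scaled by the trimmed mean of M values (TMM). A change is a log2 fold change on that scale. A gene was called where edgeR's quasi-likelihood test gave a Benjamini-Hochberg adjusted p under 0.05 over all genes tested. The scaling matters for Pro-osteoblast, whose osteoblast markers alone took 215203 and 214777 CPM: with library totals only, the median of all genes in Pro-osteoblast against MSC moved by −1.19. Counts depend on transcript length and capture, so levels are not compared between genes. Gapdh, Pgk1, Ldha and Eno1 have near-identical copies elsewhere in the mouse genome, and the sources used here do not give how reads shared with such copies were counted, so their levels are uncertain.

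The promoters of 4 members that rose together in Pre-adipocyte are shown, chosen after their values were seen, because all 4 hold the core of the hypoxia response element, ACGTG or GCGTG. Gapdh and Pdk4 rose there too and also hold it, but are not shown. The Gapdh window has 1 ACGTG and 2 GCGTG, and that of Pdk4 has 1 GCGTG. For Slc2a3 and Ndrg1, which rose as well, no window was found. Each is 250 bases before to 50 after the start of a RefSeq transcript in GRCm38.p6, read 5′ to 3′ on the gene's own strand. Capitals mark every match to ACGTG or GCGTG on either strand, so that CACGT and CACGC are matches on the other strand and CACGTG, an E-box, is a match on both.

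Ldha (chr7:46845554-46845853, + strand): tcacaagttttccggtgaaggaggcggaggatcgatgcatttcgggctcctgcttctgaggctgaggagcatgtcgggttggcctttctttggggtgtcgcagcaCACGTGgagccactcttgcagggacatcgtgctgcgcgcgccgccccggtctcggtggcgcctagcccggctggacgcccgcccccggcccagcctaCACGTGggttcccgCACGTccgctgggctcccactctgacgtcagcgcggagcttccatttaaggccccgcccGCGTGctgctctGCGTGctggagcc
Hk2 (chr6:82774405-82774704, − strand): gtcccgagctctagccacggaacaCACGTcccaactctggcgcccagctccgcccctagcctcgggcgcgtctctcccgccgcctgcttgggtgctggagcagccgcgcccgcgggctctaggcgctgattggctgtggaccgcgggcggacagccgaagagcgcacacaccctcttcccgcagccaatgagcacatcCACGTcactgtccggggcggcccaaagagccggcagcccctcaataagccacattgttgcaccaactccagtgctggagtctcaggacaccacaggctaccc
Slc16a1 (chr3:104638414-104638713, + strand): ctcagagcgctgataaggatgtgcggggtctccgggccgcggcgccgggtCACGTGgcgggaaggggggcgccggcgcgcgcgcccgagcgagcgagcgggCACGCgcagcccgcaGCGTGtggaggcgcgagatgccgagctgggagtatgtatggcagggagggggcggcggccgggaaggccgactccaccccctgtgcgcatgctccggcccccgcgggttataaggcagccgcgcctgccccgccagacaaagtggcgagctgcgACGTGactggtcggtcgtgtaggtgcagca
Ddit4 (chr10:59951721-59952020, − strand): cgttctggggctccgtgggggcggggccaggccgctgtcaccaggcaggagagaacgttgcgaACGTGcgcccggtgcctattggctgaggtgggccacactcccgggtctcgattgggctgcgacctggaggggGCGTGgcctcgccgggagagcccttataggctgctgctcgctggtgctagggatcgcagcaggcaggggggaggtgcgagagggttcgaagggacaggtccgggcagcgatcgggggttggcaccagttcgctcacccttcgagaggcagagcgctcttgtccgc

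The Ldha window shown held 5 matches to ACGTG and 2 to GCGTG, with each CACGTG counted on both strands. RefSeq has another window for Ldha (chr7:46846832-46847131), which held none to ACGTG and 2 to GCGTG. The Hk2 window held 2 to ACGTG and none to GCGTG, the Slc16a1 window 3 and 2, and the Ddit4 window 1 of each. RefSeq windows were found for 30 of the 33 members, 43 windows in all, and 35 of them (81.4%) held either motif, against 43.8% of all 32851 windows of the same length. ACGTG was in 53.5% of the members' windows and 19.6% of all windows, and GCGTG in 58.1% and 32.4%. Either motif was in a window of 27 of the 30 members, and of 12628 of all 27025 genes with a window. A gene with several windows has more chances to hold a match. Among the 27 members were Hif1a, Pgam1, Egln1 and Bnip3, which were not called in Pre-adipocyte against MSC. The windows shown were picked for both the rise and the motif, so they cannot tell whether the motif goes with the rise. Such a link was not tested. A match describes the letters of the window, and binding was not measured.

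Summed over all 33 members, the level was highest in Pre-adipocyte and lowest in Pro-osteoblast. As CPM from class totals, without TMM, the sum was 3366 and 3334 in MSC (Stroma1, then Stroma2), 3961 and 3723 in Adipocyte progenitor, and 5015 and 5024 in Pre-adipocyte. It was 2808 and 2799 in Osteoblast progenitor, 2427 and 2690 in Pre-osteoblast/chondrocyte, and 1196 and 1084 in Pro-osteoblast. Both samples of the adipocyte classes lay above both of MSC, and both samples of the other 3 classes lay below. The low end rests on Epas1, the gene for HIF-2alpha, and on the scaling. Epas1 made up 37.3% and 39.1% of the members' counts in MSC and 3.57% and 1.97% in Pro-osteoblast. Without Epas1 the sum of the other 32 members was 2112 and 2029 in MSC, 2121 and 2162 in Osteoblast progenitor and 2137 and 2406 in Pre-osteoblast/chondrocyte, so that the direction against MSC turned in these classes. In Pro-osteoblast it was 1154 and 1063 from class totals but 1921 and 2051 after TMM scaling, where MSC had 1719 and 1639, so its direction against MSC depends on the scaling. Pre-adipocyte stayed above MSC in each form, with 3788 and 3848 without Epas1. No p is given for a sum.

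**Figure D1:**
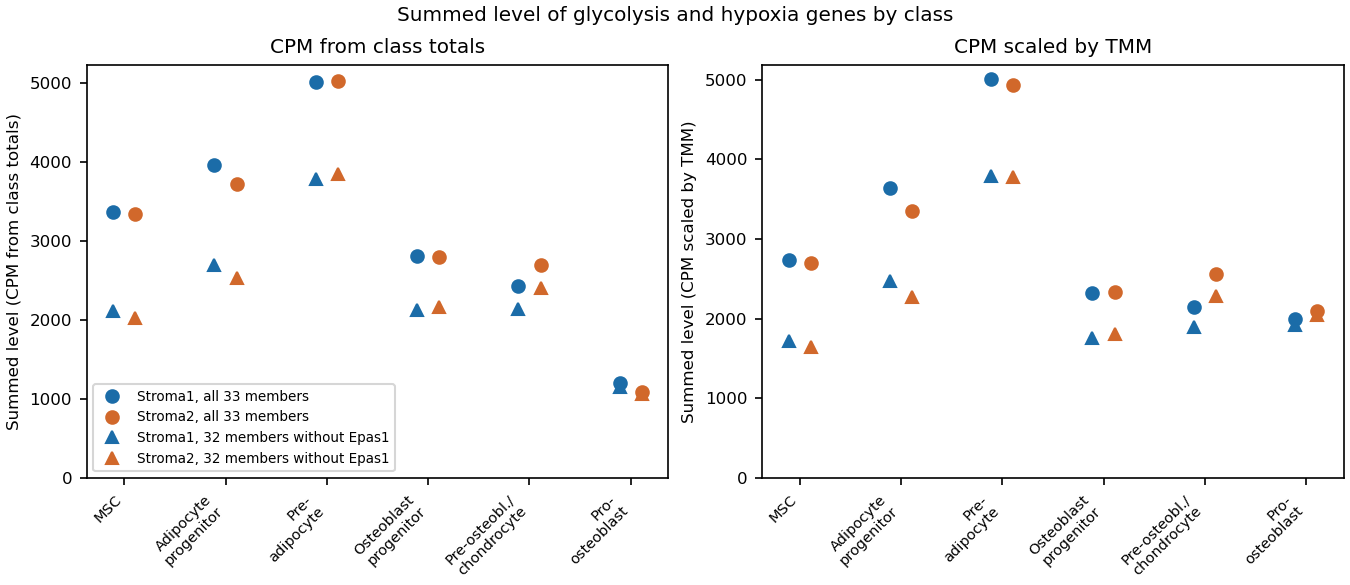
Summed level of the members in each sample and class, as CPM from class totals (left) and as CPM scaled by TMM (right), for all 33 members (circles) and for the 32 without Epas1 (triangles), with Stroma1 in blue and Stroma2 in orange. Pre-adipocyte is highest in both panels, and Pro-osteoblast lies below MSC in all but the sum without Epas1 scaled by TMM, where it is 1921 and 2051 against 1719 and 1639.

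By role, the sums from class totals parted. The 4 transporters had 107.0 and 120.8 CPM in MSC, 313.0 and 381.1 in Pre-adipocyte, and 5.34 and 19.3 in Pro-osteoblast. The 8 genes of lower glycolysis had 1002 and 945 in MSC, 1862 and 1803 in Pre-adipocyte, and 737 and 594 in Pro-osteoblast, which TMM scaling turned to 1227 and 1147 against 816 and 764 in MSC. The 9 genes of upper glycolysis had 491 and 425 in MSC, 618 and 627 in Pre-adipocyte and 155 and 170 in Pro-osteoblast, which after TMM scaling was 258 and 329 against 400 and 343 in MSC. The 4 flux regulators were highest in Osteoblast progenitor, at 264 and 301 CPM against 154 and 134 in MSC. The hypoxia factors and hydroxylases had 1412 and 1474 in MSC and 118 and 122 in Pro-osteoblast, while the 4 response genes had 200.2 and 234.9 in MSC and 617.9 and 576.3 in Pre-adipocyte.

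Of the 33 members, 22 passed the filter on low counts over the classes, and 10 of these 22 differed between the 6 classes by the F test (edgeR adjusted p under 0.05), where 44.5% of all 6229 genes tested did. The 10 are Slc2a3, Slc16a1, Hk2, Gapdh, Ldha, Pkm, Pdk4, Epas1, Ddit4 and Ndrg1. They split into genes highest in Pre-adipocyte, a gene highest in Pro-osteoblast (Pkm), a gene highest in Osteoblast progenitor (Pdk4), and Epas1, which was lower in each class of the osteoblast branch than in the one before it.

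**Figure D2:**
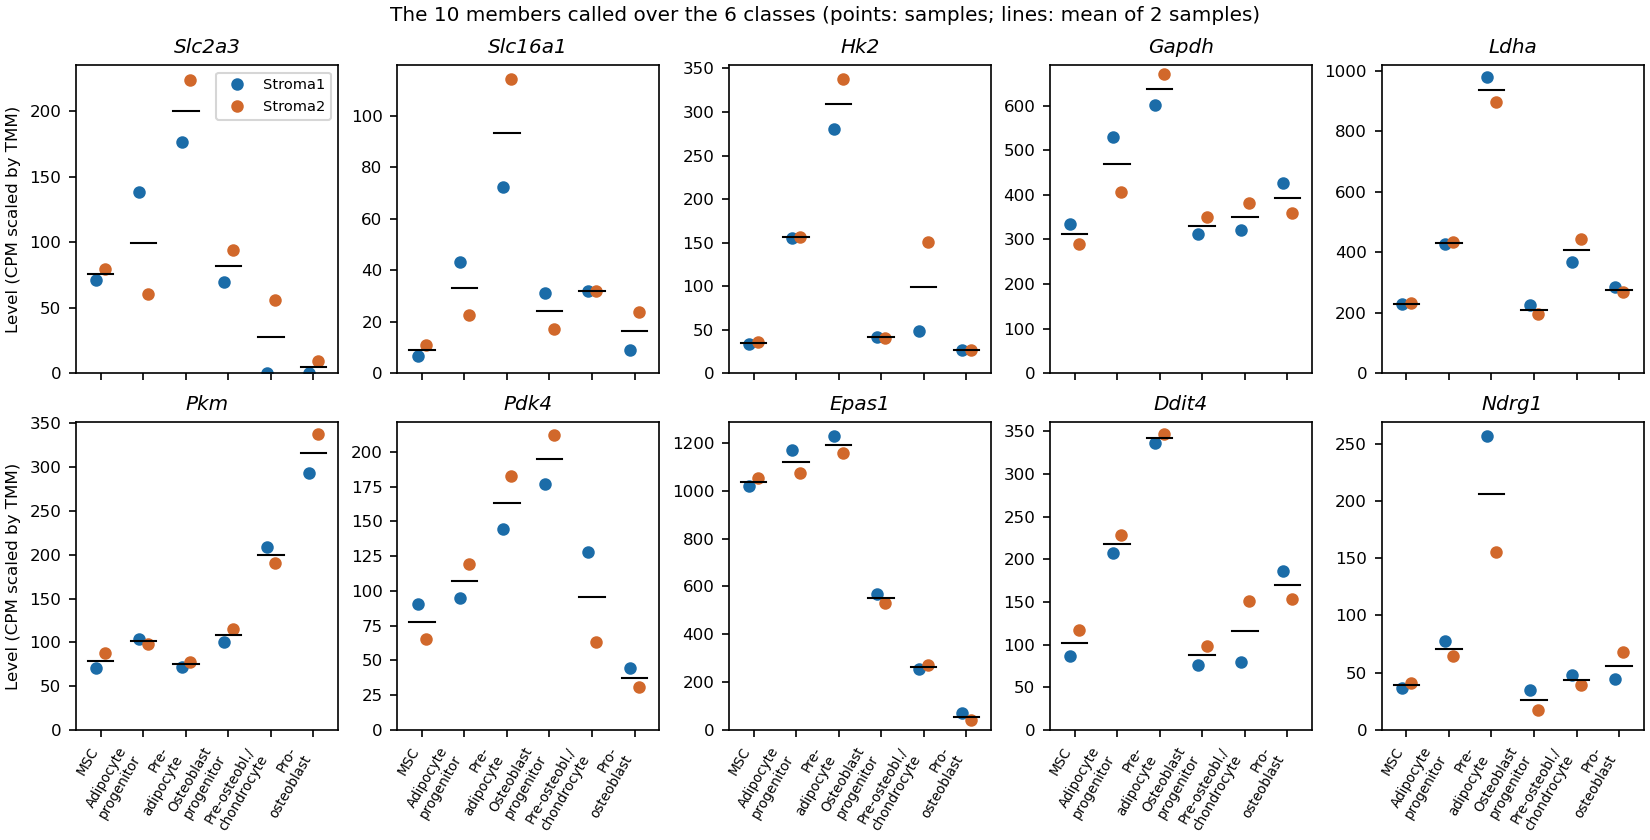
Level in CPM scaled by TMM of the 10 members called over the 6 classes, with a point for each sample, Stroma1 in blue and Stroma2 in orange, and a line at their mean. Hk2, Ldha, Slc16a1, Slc2a3, Gapdh, Ddit4 and Ndrg1 peak in Pre-adipocyte, Pkm is highest in Pro-osteoblast, and Epas1 falls to 71.2 and 41.2 there.

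Among the transporters, Slc16a1 encodes a carrier that moves lactate and pyruvate across the plasma membrane. Its level was 6.7 and 11 in MSC, 43.2 and 22.7 in Adipocyte progenitor, and 72.2 and 114 in Pre-adipocyte. It was 31.2 and 17.2 in Osteoblast progenitor, 32.1 and 31.8 in Pre-osteoblast/chondrocyte, and 8.89 and 23.9 in Pro-osteoblast. Pre-adipocyte thus lay above every other class in both samples, from 9 and 25 counts. Slc2a3 encodes a glucose transporter with high affinity. It stood at 71.4 and 79.5 in MSC, 138 and 60.5 in Adipocyte progenitor, and 176 and 224 in Pre-adipocyte. In Osteoblast progenitor it was 69.4 and 94.4, in Pre-osteoblast/chondrocyte 0 and 55.6, and in Pro-osteoblast 0 and 9.31. The samples of Adipocyte progenitor fell on either side of MSC, and the low values in Pro-osteoblast rest on 0 and 7 counts. Slc2a1, the widely expressed glucose transporter, did not pass the filter, with 8 and 9 counts in MSC, 4 and 7 in Pre-adipocyte and none in Pro-osteoblast. Slc16a3, a lactate exporter, had at most 4 counts in a class and sample.

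In upper glycolysis, Hk2 encodes the inducible hexokinase that commits glucose to the pathway (chr6:82725025-82774454 in GRCm38.p6). Its level was 33.5 and 36.2 in MSC, 156 and 157 in Adipocyte progenitor, and 281 and 338 in Pre-adipocyte. It was 41.6 and 40.7 in Osteoblast progenitor, 48.1 and 151 in Pre-osteoblast/chondrocyte, and 26.7 and 26.6 in Pro-osteoblast. The 3 classes from MSC to Pre-adipocyte did not overlap, whereas the samples of Pre-osteoblast/chondrocyte differed 3 counts to 19. Hk1, the constitutive hexokinase, was 36.8 and 40.2 in MSC and 40.1 and 0 in Pre-adipocyte, and it was not called over the classes (adjusted p = 0.179). Gpi1, Pfkl, Aldoa and Tpi1, the isomerase, a phosphofructokinase, the aldolase and the triose isomerase, were not called over the classes either (adjusted p from 0.11 to 0.823). The phosphofructokinase genes Pfkm and Pfkp and the aldolase Aldoc did not pass the filter, with at most 23 counts in a class and sample.

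In lower glycolysis, Ldha encodes the lactate dehydrogenase subunit that favours lactate (chr7:46842274-46855627). Its level was 229 and 231 in MSC, 426 and 435 in Adipocyte progenitor, and 979 and 896 in Pre-adipocyte. It was 226 and 195 in Osteoblast progenitor, 369 and 445 in Pre-osteoblast/chondrocyte, and 285 and 267 in Pro-osteoblast. Again both samples of Pre-adipocyte lay above all others. Gapdh, often taken as a gene of even expression, was 335 and 289 in MSC, 530 and 407 in Adipocyte progenitor and 602 and 672 in Pre-adipocyte, and between 312 and 427 in the other 3 classes. Pkm encodes the pyruvate kinase of most tissues (chr9:59656576-59679372). It was 70.3 and 88.2 in MSC, 104 and 98.3 in Adipocyte progenitor, and 72.2 and 77.7 in Pre-adipocyte. It was 101 and 116 in Osteoblast progenitor, 209 and 191 in Pre-osteoblast/chondrocyte, and 293 and 338 in Pro-osteoblast. The order of Pkm over the classes is thus unlike that of Ldha, with the highest samples at the osteoblast end. The mutase Pgam1, the enolase Eno1 and the heart-type dehydrogenase Ldhb were not called over the classes (adjusted p = 0.0951, 0.441 and 0.427). Pgk1, phosphoglycerate kinase, had at most 11 counts in a class and sample and Eno2 at most 7, and neither passed the filter.

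Of the flux regulators, Pdk4 encodes a kinase that shuts pyruvate dehydrogenase and so holds back the oxidation of pyruvate in the mitochondria. It was 90.4 and 65.3 in MSC, 95.0 and 119 in Adipocyte progenitor, and 144 and 183 in Pre-adipocyte. It was 177 and 212 in Osteoblast progenitor, 128 and 63.5 in Pre-osteoblast/chondrocyte, and 44.5 and 30.6 in Pro-osteoblast. Osteoblast progenitor and Pre-adipocyte overlapped, and both lay above MSC. Pdk1, a related kinase and a known hypoxia target, did not pass the filter and was 17.8 and 27.9 in Pro-osteoblast (2 and 21 counts) against 1.12 and 6.30 in MSC. Pfkfb3, which makes the activator of phosphofructokinase, was 24.6 and 26.0 in MSC and 72.2 and 64.0 in Pre-adipocyte and missed the threshold over the classes (adjusted p = 0.0632). Pfkfb4, its relative, had at most 13 counts.

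Of the hypoxia factors, Epas1, for HIF-2alpha (chr17:86753864-86833410), was called over the classes. Its level was 1021 and 1054 in MSC, 1169 and 1072 in Adipocyte progenitor, and 1227 and 1156 in Pre-adipocyte. It was 569 and 532 in Osteoblast progenitor, 257 and 270 in Pre-osteoblast/chondrocyte, and 71.2 and 41.2 in Pro-osteoblast. The first 3 classes lay between 1021 and 1227, and the other 3 followed in steps with no overlap. Hif1a, for HIF-1alpha, was 62.5 and 62.2 in MSC and between 32.1 and 111 in the other 5 classes, and it was not called over the classes (adjusted p = 0.558) or in any comparison below. The hydroxylase Egln1 was 64.7 and 74.8 in MSC and was not called (adjusted p = 0.585), and Egln3, a hydroxylase that is itself a known target, had at most 1 count in a class and sample.

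Of the response genes, Ddit4 encodes REDD1, an inhibitor of the growth kinase mTORC1. It was 87.0 and 117 in MSC, 207 and 229 in Adipocyte progenitor, and 337 and 347 in Pre-adipocyte. It was 76.4 and 98.6 in Osteoblast progenitor, 80.2 and 151 in Pre-osteoblast/chondrocyte, and 187 and 153 in Pro-osteoblast. The steps from MSC to Pre-adipocyte did not overlap. Ndrg1, a gene known to respond to stress, differentiation and hypoxia, was 36.8 and 40.9 in MSC, 77.8 and 64.3 in Adipocyte progenitor, and 257 and 155 in Pre-adipocyte. It was 34.7 and 17.2 in Osteoblast progenitor, 48.1 and 39.7 in Pre-osteoblast/chondrocyte, and 44.5 and 67.8 in Pro-osteoblast. Bnip3, a receptor for the removal of mitochondria, was 37.9 and 30.7 in MSC and was not called (adjusted p = 0.382). Ankrd37, a small hypoxia target, did not pass the filter. It had 0 and 7 counts in Pre-adipocyte and 1 and 8 in Adipocyte progenitor, classes of unlike total counts, so these do not compare as levels.

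In Adipocyte progenitor against MSC, 4 members rose and none fell, where 3.95% of all genes rose and 0.225% fell. Hk2 rose by 2.15 (SE 0.30, edgeR adjusted p = 1.19e-08), Ddit4 by 1.09 (SE 0.22, adjusted p = 0.000192), Ldha by 0.90 (SE 0.15, adjusted p = 2.02e-06) and Gapdh by 0.57 (SE 0.15, adjusted p = 0.00593). The median change of the 22 members was 0.22, against 0.01 for all genes. Slc16a1 at 1.77 (adjusted p = 0.0744) and Epas1 at 0.11 (adjusted p = 0.877) did not pass. The call of Gapdh was lost without library 1.1 (0.55), 1.2 (0.39), 2.2 (0.58) or 2.3 (0.52) and with library totals (0.41), and that of Ddit4 without library 1.2 (0.84), which left 2 calls.

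In Pre-adipocyte against MSC, 8 members rose and none fell, where 8.48% of all genes rose and 1.88% fell. They were the lactate carrier Slc16a1 at 3.36 (SE 0.57, edgeR adjusted p = 2.08e-06), Hk2 at 3.15 (SE 0.31, adjusted p = 1.32e-14), Ndrg1 at 2.32 (SE 0.34, adjusted p = 5.4e-08) and Ldha at 2.01 (SE 0.16, adjusted p = 1.12e-19). Ddit4 rose by 1.73 (SE 0.24, adjusted p = 1.25e-08), Slc2a3 by 1.43 (SE 0.33, adjusted p = 0.000832), Pdk4 by 1.12 (SE 0.31, adjusted p = 0.00767) and Gapdh by 1.06 (SE 0.17, adjusted p = 2.51e-07). Some of the genes that rose take part in the entry of glucose (Slc2a3), its first phosphorylation (Hk2), the formation of lactate (Ldha) and the transport of lactate (Slc16a1). The others were Gapdh, Pdk4, Ddit4 and Ndrg1. Between Hk2 and Gapdh no member was called: Gpi1 at −0.40, Pfkl at −0.65, Aldoa at 0.31 and Tpi1 at 0.13 did not pass (adjusted p from 0.645 to 0.89). Between Gapdh and Ldha no member was called either. Pgam1 at −0.58, Eno1 at 0.65 and Pkm at −0.09 did not pass (edgeR adjusted p from 0.371 to 0.921), so the calls did not cover each step of the pathway. A missing call does not show that a gene stayed level. Pfkm, Pfkp, Aldoc, Pgk1 and Eno2 were not tested, and neither was a rise of the pathway as a whole. Neither Epas1 at 0.20 (adjusted p = 0.435) nor Hif1a at 0.65 (adjusted p = 0.331) passed. The median of the 22 members was 0.48, against −0.05 for all genes. Pdk4 lost its call without library 1.2 (0.76) or 2.1 (0.79) and with library totals (0.84), and Slc16a1 moved to 2.76 without library 1.1 and stayed called.

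Against Adipocyte progenitor, 3 members rose in Pre-adipocyte and none fell, where 4.19% of all genes rose and 0.69% fell. Ndrg1 rose by 1.49 (SE 0.35, edgeR adjusted p = 0.00239), Ldha by 1.11 (SE 0.16, adjusted p = 7.09e-08) and Hk2 by 0.99 (SE 0.29, adjusted p = 0.0213). Slc2a3 at 1.10 (adjusted p = 0.0509), Slc16a1 at 1.60 (adjusted p = 0.081) and Gapdh at 0.49 (adjusted p = 0.0888) missed the threshold. Without library 1.1 the call of Hk2 (0.79) and that of Ndrg1 (1.11) were lost, and Hk2 also lost its call without library 2.1 (0.91) or 2.3 (0.90).

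The immediate-early genes, known as fast responders to stimuli and to the handling of tissue, moved with these changes. All 18 that were tested rose in both adipocyte classes against MSC. Of all genes 3.95% rose in Adipocyte progenitor and 8.48% in Pre-adipocyte. The list of 20 summed to 7139 and 7507 CPM in MSC, 36282 and 35690 in Adipocyte progenitor, and 59495 and 58187 in Pre-adipocyte. In Pre-adipocyte the neutrophil markers summed to 2311 CPM in Stroma1 and 381 in Stroma2, against 26.1 and 30.2 in MSC, with Ngp, Camp, Elane and Mpo at 0 in both samples. The macrophage and monocyte markers summed to 136 and 32.5 CPM there, with C1qa, C1qb, Csf1r, Adgre1 and Ctss at 0. Doublets were not called. The part of these in the changes above was not tested.

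In Osteoblast progenitor against MSC, 1 member rose and 1 fell, where 4.66% of all genes rose and 3.31% fell. Pdk4 rose by 1.35 (SE 0.26, edgeR adjusted p = 6.69e-05) and Epas1 fell by 0.92 (SE 0.13, adjusted p = 7.1e-08). Hk2 at 0.22, Ldha at −0.15 and Gapdh at 0.11 did not pass (adjusted p from 0.771 to 0.862). The median of the members was 0.08, against 0.01 for all genes. Both calls were kept without any of the 5 libraries in turn.

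In Pre-osteoblast/chondrocyte against MSC, 3 members rose and 1 fell, where 9.36% of all genes rose and 8.62% fell. Hk2 rose by 1.67 (SE 0.45, edgeR adjusted p = 0.00317), Pkm by 1.29 (SE 0.33, adjusted p = 0.00229) and Ldha by 0.86 (SE 0.22, adjusted p = 0.00189), while Epas1 fell by 1.96 (SE 0.22, adjusted p = 1.91e-12). Against Osteoblast progenitor, 2 members rose and 1 fell, where 4.61% of all genes rose and 4.69% fell: Hk2 rose by 1.45 (SE 0.48, adjusted p = 0.0383), Ldha by 1.01 (SE 0.24, adjusted p = 0.00156), and Epas1 fell by 1.04 (SE 0.24, adjusted p = 0.00103). With library totals this split was 1 risen and 2 fallen, and the median of all genes was −0.21 against −0.05 on the TMM scale. This class had 25 cells in Stroma1 and 66 in Stroma2, and the rise of Hk2 rests on Stroma2: in Stroma1 alone it was 0.52 against MSC and 0.21 against Osteoblast progenitor. Library 2.2 gave 12 of the 22 counts of Hk2, and without it Hk2 was 0.97 and Ldha 0.57 against MSC, neither called, and 0.61 and 0.76 against Osteoblast progenitor, neither called. Against MSC, Ldha also lost its call without library 1.2 (0.68) and Pkm without library 1.1 (0.94) or 2.3 (0.90). Against Osteoblast progenitor, Ldha lost it without library 1.2 (0.86) and Hk2 without 1.1 (1.57), 1.2 (1.48) or 2.3 (1.5). Without library 1.1 or 1.2 the class has under 15 cells in Stroma1. Cell cycle genes summed to 959.8 and 676.6 CPM in this class against 126 and 139 in MSC, and their part in these changes was not tested.

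In Pro-osteoblast against MSC, 3 members rose and 4 fell, where 20% of all genes rose and 18.7% fell on the TMM scale. With library totals 1 rose and 17 fell, and no share of all genes is given for that setting. Pkm rose by 2.0 (SE 0.23, edgeR adjusted p = 7.11e-12), and by 0.82 with library totals. The mutase Pgam1 at 0.78 (SE 0.31, adjusted p = 0.0386) and Ddit4 at 0.60 (SE 0.25, adjusted p = 0.0441) rose on the TMM scale, and with library totals their direction turned, to −0.41 and −0.60. Epas1 fell by 4.48 (SE 0.21, adjusted p = 4.62e-33), Slc2a3 by 3.21 (SE 0.53, adjusted p = 3.51e-07), Pfkl by 2.40 (SE 0.78, adjusted p = 0.00889) and Pdk4 by 1.21 (SE 0.37, adjusted p = 0.00512). Ldha at 0.24 (adjusted p = 0.273), Gapdh at 0.30 (adjusted p = 0.138) and Hk2 at −0.45 (adjusted p = 0.437) did not pass. The median of the members was 0.09, against 0.01 for all genes, and −1.11 against −1.19 with library totals. Slc2a3 and Pfkl had no count in Stroma1, so their size is set by 7 and 5 counts of Stroma2. In Stroma1 alone Epas1 fell by 3.84. Without library 1.1 or 1.2 there were 4 calls: Ddit4 (0.53, 0.32) and Pgam1 (0.73, 0.64) lost theirs in both cases, and Pfkl did not pass the count filter and was not tested. Ddit4 also lost its call without library 2.1 (0.52), and Pgam1 without 2.2 (0.79) or 2.3 (0.52), where Pfkl was again not tested.

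Against Pre-osteoblast/chondrocyte, 2 members fell in Pro-osteoblast and none rose, where 8.24% of all genes fell and 9.01% rose on the TMM scale. With library totals 8 fell and none rose, and no share of all genes is given for that setting. The median of the members was −0.53, against 0.07 for all genes, and −1.54 against −0.93 with library totals. Epas1 fell by 2.52 (SE 0.36, edgeR adjusted p = 1.65e-08) and Hk2 by 2.12 (SE 0.51, adjusted p = 0.00105), while Pkm at 0.71 (adjusted p = 0.111), which turned to −0.28 with library totals, and Ldha at −0.62 (adjusted p = 0.0541) did not pass. In Stroma1 alone the change of Hk2 was −0.84 and that of Epas1 −1.85. Without library 2.2 Hk2 was −1.46 and lost its call, and there were 4 calls without library 1.1 or 2.3. The 5 comparisons against MSC share the MSC cells, and the 3 between later classes share cells with them, so they are not independent of each other.

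**Figure D3:**
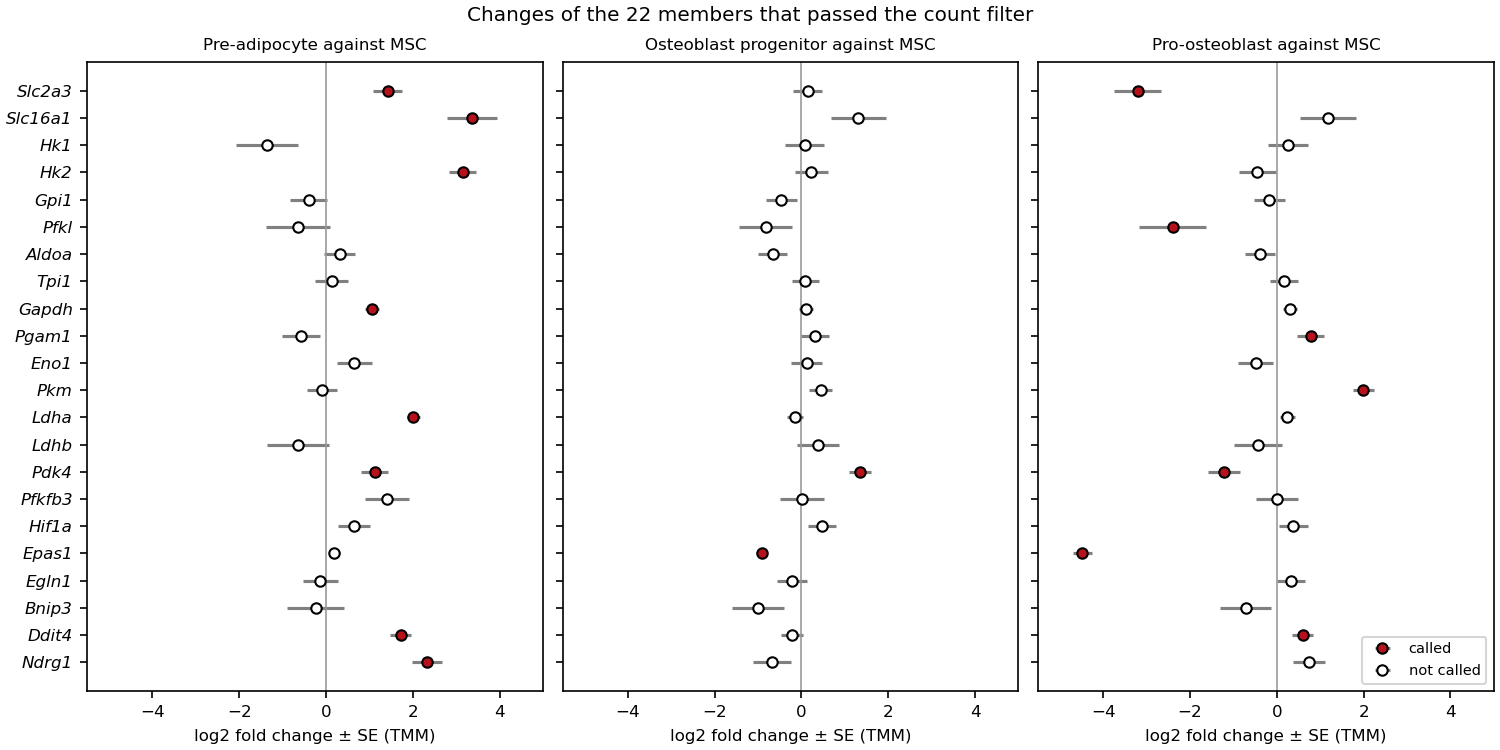
Log2 fold change against MSC, on the TMM scale, of the 22 members that passed the count filter, in Pre-adipocyte, Osteoblast progenitor and Pro-osteoblast, with bars of 1 SE, filled where called. In Pre-adipocyte 8 members are filled, all to the right of 0; in Pro-osteoblast 3 are filled to the right, of which Ddit4 and Pgam1 turn with library totals, and 4 to the left, with Epas1 at −4.48.

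Each pseudotime, in which cells are evenly spaced from 0 to 1, was cut into 5 bins of equal width and so of nearly equal numbers of cells, from bin 1 at the start to bin 5 at the end of the path. Along the adipocyte path, whose bin 5 was 55.4% Pre-adipocyte and 44.3% Adipocyte progenitor, 8 of 22 members rose from bin 1 to bin 5 and none fell, where 8.82% of all genes rose and 3.27% fell. The rise came late: Ldha was 274 and 311 in bin 1, 244 and 257 in bin 3, 340 and 381 in bin 4 and 946 and 869 in bin 5. Hk2 was 18.5 and 41.7 in bin 1, 48.7 and 50.8 in bin 3, 108 and 120 in bin 4 and 304 and 330 in bin 5. Ndrg1 was 55.6 and 64.2 in bin 1, 41.5 and 44.3 in bin 4 and 233 and 145 in bin 5. For all 3 genes both samples were highest in bin 5. Slc16a1 rose by 3.91 (SE 0.75, edgeR adjusted p = 7.36e-05), from 2 and 1 counts in bin 1 to 18 and 34 in bin 5, and was 3.13 in Stroma1 and 4.79 in Stroma2 alone. Hk2 rose by 3.31 (SE 0.35), Ldha by 1.62 (SE 0.17), Ndrg1 by 1.58 (SE 0.35) and Slc2a3 by 1.13 (SE 0.31). Pdk4 rose by 1.05 (SE 0.33), Ddit4 by 1.04 (SE 0.24) and Gapdh by 1.0 (SE 0.16), and the edgeR adjusted p of these 7 lay between 8.58e-12 and 0.0276. In Stroma1 alone Hk2 was 4.00. Epas1 was 1294 and 1386 in bin 1 and 1416 and 1350 in bin 5, and its change of 0.04 (SE 0.11, adjusted p = 0.877), or −0.21 with library totals, did not pass. As CPM from totals, the sum of the 33 members was 3498 and 3589 in bin 1 and 4828 and 4584 in bin 5. The median of the members tested was 0.33, against −0.01 for all genes, and all 18 immediate-early genes tested rose on this path too.

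Along the osteoblast path, whose bin 5 was 89.6% Pro-osteoblast, 1 of 21 members rose and 4 fell. On the TMM scale 18.9% of all genes rose and 18.8% fell. With library totals 1 member rose and 14 fell, and no share of all genes is given for that setting. Pkm was 54.1 and 79.9 in bin 1, 67.3 and 130 in bin 4 and 332 and 334 in bin 5, and rose by 2.25 (SE 0.30, edgeR adjusted p = 2.28e-09). Epas1 was 1178 and 1253 in bin 1, 1104 and 953 in bin 3, 637 and 649 in bin 4 and 73.0 and 52.2 in bin 5, and fell by 4.43 (SE 0.22, adjusted p = 4.86e-26). Its level was thus lower before the Pro-osteoblast cells, in bin 4, which was 79.7% Osteoblast progenitor. Slc2a3 fell by 2.83 (SE 0.51, adjusted p = 4.99e-06) and Pfkl, at −2.50 (SE 0.74, adjusted p = 0.00483), fell too, with 0 and 11 and 0 and 7 counts in bin 5. Pdk4 took another course: it was 62.4 and 82.7 in bin 1, 194 and 224 in bin 4 and 56.8 and 30.6 in bin 5. Its call at −1.0 (SE 0.41, adjusted p = 0.0497) compares the ends only, and the sign turned with 3 bins (0.51) and for a slope over the 5 bins (0.36). In Stroma1 alone it was −0.14. The sum of the members was 3492 and 3577 CPM from totals in bin 1 and 1301 and 1119 in bin 5. After TMM scaling it was 3030 and 3102 against 2173 and 2148, and without Epas1 1852 and 1849 against 2100 and 2096, so that the direction of the sum without Epas1 depends on the scaling. The median of the members tested was −0.05, against −0.01 for all genes, and −1.14 against −1.09 with library totals.

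Along the chondrocyte path, 3 of 21 members rose and 1 fell, where 9.49% of all genes rose and 9.15% fell; with library totals 2 rose and 2 fell. Its bin 5 was 67.7% Osteoblast progenitor, 24.5% Pre-osteoblast/chondrocyte and 3.9% Pro-chondrocyte, so that few of its cells carried the chondrocyte label. Pdk4 was 66.9 and 92.6 in bin 1 and 230 and 244 in bin 5, and rose by 1.54 (SE 0.31, edgeR adjusted p = 6.96e-05). Pkm went from 61.7 and 96.2 to 170 and 184 and rose by 1.13 (SE 0.32, adjusted p = 0.00675). Hk2 went from 20.6 and 46.3 to 65.1 and 103 and rose by 1.30 (SE 0.46, adjusted p = 0.0374), a call that was lost with library totals (1.23). Epas1 went from 1389 and 1492 to 471 and 440 and fell by 1.67 (SE 0.13, adjusted p = 3.09e-17). The sum of the members was 3561 and 3667 CPM in bin 1 and 2695 and 2758 in bin 5, and without Epas1 it was 2163 and 2162 against 2245 and 2334, with the direction turned. The median of the members tested was 0.02, against 0.00 for all genes, and −0.05 against −0.07 with library totals. The 3 paths share their early cells, and their changes are set side by side without a test between them.

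**Figure D4:**
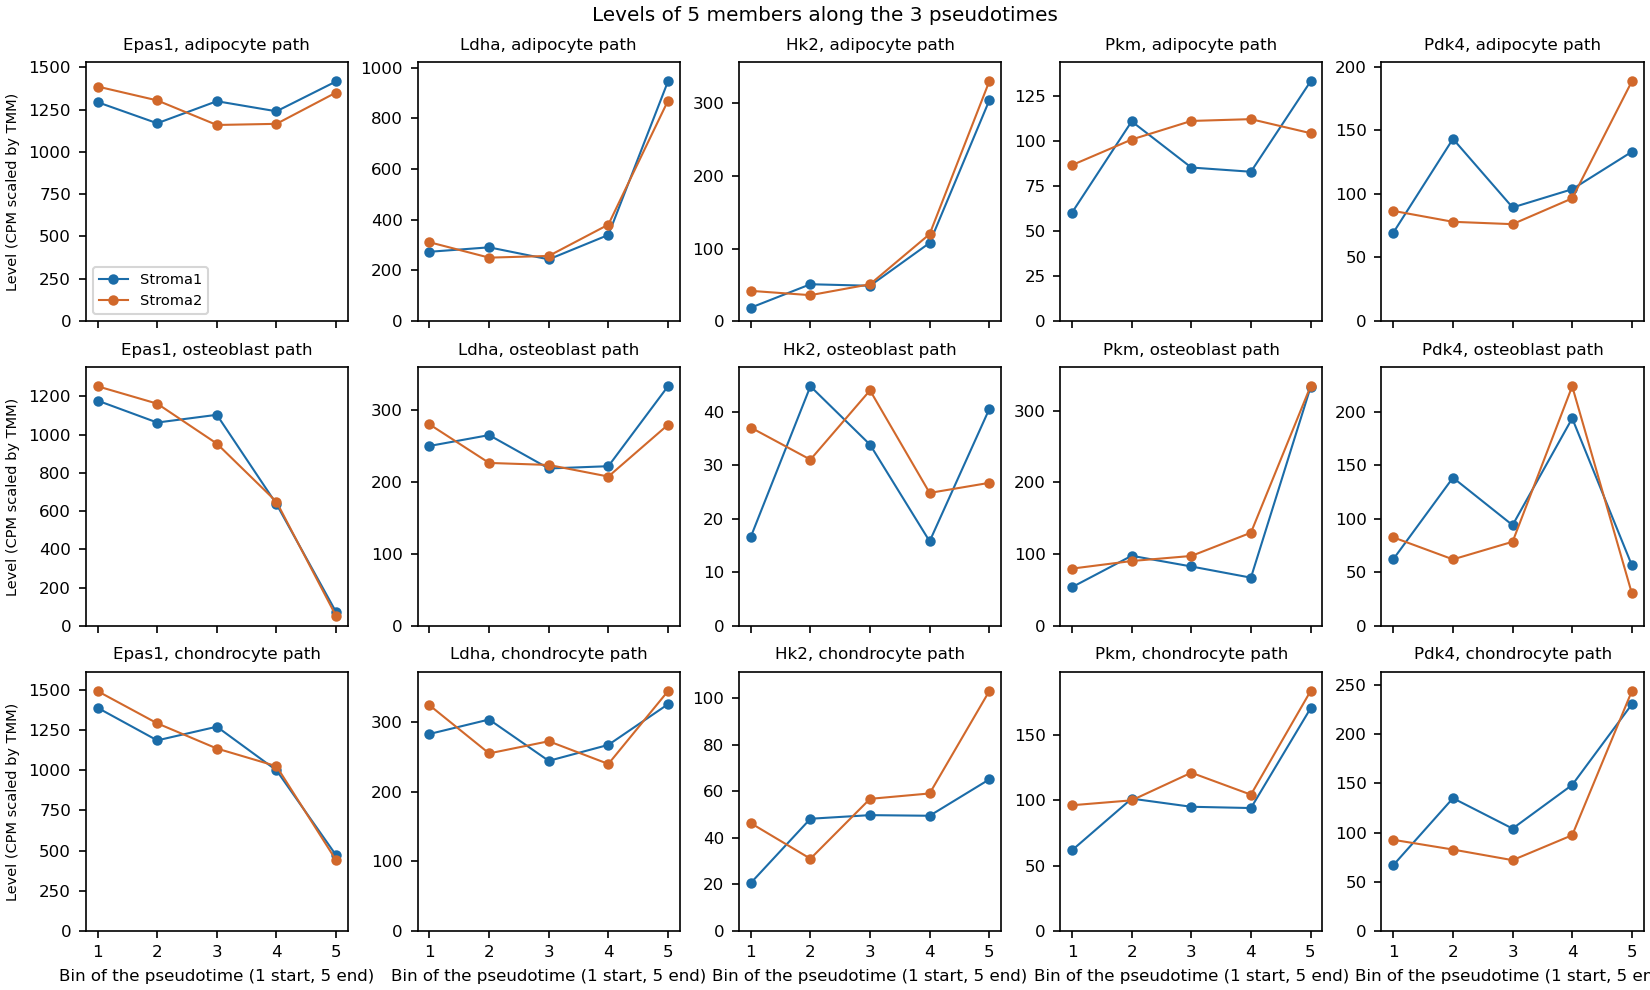
Level in CPM scaled by TMM of Epas1, Ldha, Hk2, Pkm and Pdk4 over the 5 bins of the adipocyte, osteoblast and chondrocyte pseudotimes, for Stroma1 (blue) and Stroma2 (orange), on axes that start at 0 and differ between panels. Ldha and Hk2 climb in the last 2 bins of the adipocyte path, Epas1 drops on the osteoblast and chondrocyte paths, and Pdk4 peaks in bin 4 of the osteoblast path at 194 and 224.

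In the 14 cells of the class labelled Pro-chondrocyte, the members summed to 2490 and 2821 CPM from totals, from 11 and 33 counts. Gapdh had 2 and 4 counts, Pkm 2 and 5, Ldha 0 and 4, and Epas1 0 and 2, too few to place this class among the others.

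Other genes of the same pathways gave a background for the members. Of the 43 other genes of glycolysis and pyruvate use found in the table, 19 passed the count filter and 8 were called over the 6 classes, where 44.5% of all genes were. In Pre-adipocyte against MSC none of the 19 rose and 2 fell (8.48% and 1.88% of all genes). In Pro-osteoblast 5 rose and 3 fell (20% and 18.7% of all genes). The 4 with the widest range were Slc2a10, Pgm2, G6pdx and Pck2. Slc2a10, a further sugar transporter, was 30.1 and 33.1 in MSC, 71.2 and 63.9 in Pro-osteoblast and without a count in Pre-osteoblast/chondrocyte. Pgm2, a phosphoglucomutase, was 37.9 and 43.3 in MSC and 8.02 and 4.57 in Pre-adipocyte. G6pdx, which opens the pentose phosphate pathway, was 61.4 and 57.5 in MSC and 17.8 and 14.6 in Pro-osteoblast. Pck2, a mitochondrial carboxykinase also known as a target of the amino acid response, was 36.8 and 40.2 in MSC and 196 and 184 in Pro-osteoblast, with no overlap.

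Of 42 other genes of the hypoxia-inducible factor pathway, 27 passed the filter and 22 were called over the classes, where 44.5% of all genes were. In Pre-adipocyte against MSC 11 of 27 rose and none fell (median 0.56), where 8.48% of all genes rose and 1.88% fell. In Osteoblast progenitor 1 rose and 6 fell (median −0.28), beside 4.66% and 3.31% of all genes. In Pro-osteoblast 10 rose and 7 fell (median −0.26), beside 20% and 18.7% of all genes. Those named here, among the widest in range, moved in different classes. Errfi1, a feedback inhibitor of the EGF receptor, was 443 and 446 in MSC, 2712 and 2737 in Pre-adipocyte and 151 and 87.8 in Pro-osteoblast. Vldlr, a lipoprotein receptor, was 3.35 and 7.09 in MSC, 62.5 and 77.2 in Osteoblast progenitor and 178 and 168 in Pro-osteoblast. Car12, a carbonic anhydrase, was 0 and 0.79 in MSC and 107 and 69.2 in Pro-osteoblast. Several of these genes answer to signals other than low oxygen.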

How the data were processed

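The deposited table gives counts per gene and barcode, which the authors made from inDrops reads; per the submitters' processing notes the tools include Bowtie 1.1.1 and the build is GRCm38, with no order or role. Nothing in the sources used here gives the counting tool, the annotation or the use of molecular identifiers. The table also holds, per the file headers, the mitochondrial fraction of each barcode, the filter, library and class labels, and 3 pseudotimes as fractions from 0 to 1.

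Counts of the 2847 passing cells were summed per sample and class, or per sample and bin of a pseudotime (5 bins), with at least 15 cells in each. No doublet caller was run on these cells, and how the authors treated doublets is not stated in the sources at hand. The test was that of edgeR 4.0.16, in R 4.3.3, with TMM scaling, filterByExpr at a minimum count of 10, a term for class or bin and a block for sample, and p-values adjusted by Benjamini-Hochberg over 6229 genes for the classes and 5904, 5717 and 5596 genes for the adipocyte, osteoblast and chondrocyte paths. The SE of a change was its absolute value divided by the root of F. The sample is a block because both samples hold every class. The class fit had a common dispersion of 0.0155 and 5 residual degrees of freedom, so 2 samples leave little to estimate the spread from. Exact tests over 2 samples could not reach the threshold and were not run. The fit was first tested on simulated counts with known changes.

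Sums of members are CPM from class totals. Promoters are RefSeq windows of 300 bases (GRCm38.p6). The alternatives were DESeq2 1.42.0, its size factors in edgeR, library totals, no count filter, no block, each barcode once per sample, a mitochondrial share of at most 10%, 3 bins or a slope along the paths, and samples or libraries left out. The members and lists were chosen with earlier results of these data known. All 10 members called over the classes are given in full, every member called in a comparison is named, and of each list of other genes the 4 called genes with the widest range are named, apart from 1 that is not reported here.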

Additional observations from a re-analysis of the deposited data

Results flagged for a closer look

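The members also had counts in barcodes that the authors' filter did not pass and that no comparison above uses. In Stroma1 the 585 such barcodes held 2500334 counts, and the 33 members summed to 3599.92 CPM, against 3246 CPM in the passing cells of that sample. In Stroma2 the 1675 such barcodes held 6467732 counts, and the members summed to 3420.06 CPM, against 2519 CPM in the passing cells. Both sums, from 9001 and 22120 counts, lie above the limit that a count of 0 allows, 1.20 and 0.464 CPM for 3 counts, which covers counting error only. A sum over 33 genes at this depth could hardly lie below that limit, so it shows only that counts were present. The makeup of the sum differed from that of the passing cells: Epas1 was at 104 and 52.3 CPM, against 1002 and 671 in passing cells, and Gapdh at 1239 and 1179 CPM, against 433 and 329. No samples serve as controls in this series, and the difference between passing and other barcodes was not tested.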

How the results depend on the processing

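The 60 calls of members over the classes, in the class comparisons and along the paths were recomputed under each alternative. Without the replicate block all 60 kept their direction and their side of the threshold. With DESeq2 size factors in edgeR 58 did, with a mitochondrial share of at most 10% 58, with each barcode once per sample 57, with library totals 52 and with no count filter 48, and DESeq2 gave 50 of 59. A library was left out for the class calls only. Of those tested again, 35 of 42 held without library 1.1, 34 of 42 without 1.2 and 40 of 43 without 2.1. Without 2.2 it was 35 of 42, and without 2.3 37 of 42. The pairing by sample rests on the samples themselves, since each sample holds every class, and the block changed no count of calls by over 1.5 times.

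The counts of called members that moved by over 1.5 times are these. With library totals there were 18 in Pro-osteoblast against MSC, 8 in Pro-osteoblast against Pre-osteoblast/chondrocyte, 20 over the 6 classes and 15 along the osteoblast path. In that setting the median of all genes was −1.19 and −0.93 in these comparisons and −1.09 on this path. With DESeq2 there were 5 along the adipocyte path and 2 along the chondrocyte path. With DESeq2 size factors there were 5 in Pre-adipocyte against Adipocyte progenitor and 4 in Pro-osteoblast against Pre-osteoblast/chondrocyte. With each barcode once there were 5 in Pre-adipocyte against Adipocyte progenitor. With no count filter there was 1 in Pre-osteoblast/chondrocyte against MSC and 1 against Osteoblast progenitor. With 3 bins, or with a slope, there were 3 along the osteoblast path. The library left out, an alternative chosen after the data were seen for these comparisons, gave 2 calls in Adipocyte progenitor against MSC (without 1.2), 1 in Pre-adipocyte against Adipocyte progenitor (without 1.1), 2 in Pre-osteoblast/chondrocyte against MSC (without 2.2), 4 in Pro-osteoblast against MSC (without 1.1 or 1.2), and 4, 1 and 4 in Pro-osteoblast against Pre-osteoblast/chondrocyte (without 1.1, 2.2 and 2.3). Each sample alone leaves no residual degrees of freedom, so it gave values and no counts of calls. Of the 60 values, 18 in Stroma1 alone and 3 in Stroma2 alone moved by more than the SD of the 2 single-sample values. None turned direction.

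In Pro-osteoblast against MSC with library totals, Ddit4 was −0.60 and Pgam1 −0.41, and along the osteoblast path Pdk4 was 0.51 with 3 bins and 0.36 as a slope, all with the direction turned. The ratio of the summed level to MSC without Epas1 was 1.26 in Adipocyte progenitor, 1.84 in Pre-adipocyte, 1.03 in Osteoblast progenitor, 1.10 in Pre-osteoblast/chondrocyte, 1.24 in Pro-chondrocyte and 0.535 in Pro-osteoblast, with the direction turned in the 3 between. With totals scaled by TMM, chosen after the data were seen, the ratios were 1.29, 1.83, 0.858 and 0.866 in the first 4 and 0.752 in Pro-osteoblast. Last to first along the paths it was, without Epas1, 1.63 (adipocyte), 0.551 (osteoblast) and 1.06 (chondrocyte, direction turned), and scaled by TMM 1.58, 0.705 and 0.792; with each barcode once it was 0.751 on the chondrocyte path. As a mean over cells, the ratio was 0.868 in Osteoblast progenitor and 0.370 in Pro-osteoblast, and with each barcode once 0.828 in Osteoblast progenitor. Without library 1.1, 1.2, 2.2 or 2.3 it was 1.47, 1.53, 1.48 and 1.51 in Pre-adipocyte. Without library 1.1, 1.2, 2.1, 2.2 or 2.3 it was 0.858, 0.820, 0.825, 0.854 and 0.832 in Osteoblast progenitor. Without library 1.1 or 1.2 it was 0.944 and 0.692 in Pro-chondrocyte and 0.318 and 0.368 in Pro-osteoblast. Beyond these settings' own construction, the cause was not tested. Depth limits the 11 members that did not pass the filter and the classes Pro-chondrocyte and Pre-osteoblast/chondrocyte, whose genes often rest on under 10 counts in Stroma1.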

Other observations

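The respiratory chain, the other route of pyruvate, followed another order over the classes than Ldha. Of 32 genes for its subunits, all of which passed the count filter, 23 rose and none fell in Pro-osteoblast against MSC, with a median log2 change of 0.72 on the TMM scale against 0.01 for all genes, of which 20% rose and 18.7% fell. In Pre-adipocyte against MSC none rose and 1 fell, with a median of −0.27 against −0.05 for all genes, of which 8.48% rose and 1.88% fell. In Pre-osteoblast/chondrocyte 7 rose and none fell, beside 9.36% and 8.62% of all genes. Along the osteoblast path 20 of the 32 rose and none fell, where 18.9% of all genes rose and 18.8% fell. Along the adipocyte path 1 rose and none fell, where 8.82% of all genes rose and 3.27% fell. Summed as CPM from class totals, without TMM, the list was 6105 and 6119 in MSC and 5843 and 4940 in Pro-osteoblast, so that its direction there depends on the scaling. Mitochondrial counts took 4.32% and 4.31% of all counts in MSC, 2.73% and 3.11% in Pre-adipocyte, 7.23% and 6.90% in Osteoblast progenitor and 4.18% and 3.74% in Pro-osteoblast.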
